A study of Danio rerio with 2 samples.

Results

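Early spinal cord neurons of the zebrafish tailbud were taken as the cells that carried a small set of pan-neuronal transcripts. A cell was a member if its UMIs (unique molecular identifiers, which count captured RNA molecules) of *elavl3*, *elavl4*, *stmn1b* and *gng3* summed to at least 5, if at least 3 of these 4 genes were detected, and if *acta1a* and *ttn.2*, which mark muscle, summed to at most 1. Only cells with at least 3000 UMIs and at most 15% mitochondrial UMIs were kept. The rule found 222 neurons among 43363 kept cells, 127 of 25504 in the *stag2b*-/- library and 95 of 17859 in the wild-type library.

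Both libraries were 10x Chromium single-cell RNA-seq of manually dissected tailbuds of embryos at 16 hpf (hours post fertilization). The *stag2b*-/- library came from embryos homozygous for the nz207 allele, the only mutant line used here. *stag2b* encodes a STAG subunit of cohesin, the ring complex that holds and folds chromatin. The wild-type strain is given as AB in the sample labels and as WIK in the study's methods, and the chemistry as v2 in the labels and v3 in the methods.

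Each genotype had 1 library, made from pooled tailbuds. A difference between the libraries therefore has no replicate check, and genotype, strain background and library cannot be told apart. No p-value is given. Intervals are 95% intervals for counting error only (exact Poisson for levels, exact binomial for shares, conditional binomial for ratios). Levels are UMIs summed over the neurons of a library and scaled to 1000000 UMIs (CPM), and ratios are log2 of *stag2b*-/- over wild type.

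The first neurons of the zebrafish trunk and tail arise while the body axis is still extending from the tailbud. Proneural bHLH factors such as Neurog1 start neurogenesis, Delta ligands on nascent neurons restrain their neighbours through Notch, and Elavl RNA-binding proteins and stathmins mark the cells that have left the cycle and extend axons. Among these primary neurons are motor neurons, several interneuron classes and Rohon-Beard cells, large sensory neurons in the dorsal spinal cord of fish and amphibian embryos that sense touch through the skin and express *isl1*, *drgx*, *tlx3b* and *runx3*.

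Neurons made up 0.498% of kept cells in the *stag2b*-/- library (interval 0.415% to 0.592%) and 0.532% in the wild-type library (interval 0.431% to 0.650%). The shares differed by -0.03 percentage points, with an interval from -0.18 to 0.10. No difference in the share taken by this rule was thus detectable at this depth. The median neuron held 22187 UMIs in the *stag2b*-/- library and 23346 in the wild-type library, and the summed neurons held 2751610 and 2090578 UMIs in these libraries. The libraries as a whole held 26360 and 18704 barcodes, with 393322847 UMIs in the *stag2b*-/- library and 303216340 in the wild-type library. They shared 125 barcodes, and 2 neurons carried such a barcode.

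The rule genes set who was counted, so their values are a description. The summed UMIs of the 4 genes had a median of 133 per *stag2b*-/- neuron (range 5 to 259) and 164 per wild-type neuron (range 5 to 388). Most members lay far from the threshold: 105 of 127 *stag2b*-/- neurons and 88 of 95 wild-type neurons had a sum above 20, while 4 and 2 had a sum of 5 to 7. Just outside, 2 *stag2b*-/- cells and 1 wild-type cell had a sum of 3 or 4 with at least 3 genes. A further 177 *stag2b*-/- cells and 71 wild-type cells reached the sum with only 2 of the genes. Their median sums were 22 and 27 UMIs, so many were not near the sum limit, and the shares above leave them out. The muscle limit removed 43 *stag2b*-/- and 29 wild-type cells. *elavl3* stood at 3860 CPM in *stag2b*-/- neurons and 4220 CPM in wild-type neurons, and *stmn1b*, a stathmin that regulates microtubules, at 974 and 1807 CPM in these libraries.

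Some members also carried markers of other tailbud cell types. Counted as at least 3 genes of any single other-type list at 2 or more UMIs each, these were 52 of 127 *stag2b*-/- neurons (40.9%, interval 32.3% to 50%) and 24 of 95 wild-type neurons (25.3%, interval 16.9% to 35.2%). The presomitic mesoderm list was met in 31 *stag2b*-/- and 14 wild-type neurons (24.4% and 14.7%) and the tailbud progenitor list in 20 and 12 (15.7% and 12.6%). The epidermis list was met in 11 and 6 (8.66% and 6.32%) and the neural crest list in 8 and 3 (6.30% and 3.16%). Among all kept cells of these libraries the shares were, in the same order, 56.2% and 50.7%, 27.4% and 32.7%, 12.8% and 13.3%, and 2.61% and 2.01%. The 10 presomitic mesoderm markers summed to 849 CPM in *stag2b*-/- neurons and 614 CPM in wild-type neurons, with per-cell sums from 0 to 7126 and from 0 to 9596 CPM. No marker of that list was at 0 in *stag2b*-/- neurons and 1 was in wild-type neurons. The 10 epidermis markers summed to 826 CPM in *stag2b*-/- neurons and 332 CPM in wild-type neurons, with 1 marker at 0 in each.

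The neurons with such markers were deeper, with a median of 27008.5 UMIs in the *stag2b*-/- library and 28411 in the wild-type library. A doublet caller, Scrublet, marked 19 *stag2b*-/- neurons and 5 wild-type neurons, and 18 of the 19 and 5 of the 5 carried another type's markers. It marked 14.96% of neurons and 9.55% of all kept cells in the *stag2b*-/- library. In the wild-type library it marked 5.26% of neurons and 4.34% of all kept cells. The marked share was thus higher in the *stag2b*-/- library among all kept cells as well. The share of neurons with another type's markers differed between the libraries. For many lists and main genes, though not all, values are therefore also given without such cells. The remaining 75 *stag2b*-/- and 71 wild-type neurons are called marker-free neurons here. These were 0.294% and 0.398% of kept cells in the *stag2b*-/- and wild-type libraries. The part of these markers in the other results was not tested beyond that. The neural progenitor list was not used to set cells aside. By the same measure it was met in 104 *stag2b*-/- and 68 wild-type neurons (81.9% and 71.6%), beside 56.4% and 54.9% of all kept cells. Marker-free neurons can therefore still carry transcripts of that list. The list includes *vim*, which the neurons carried far above progenitors. The shares are also not corrected for depth, and the other kept cells were shallower than the neurons. Their median was 14131 UMIs in the *stag2b*-/- library and 16222 in the wild-type library.

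The targeted gene, *stag2b*, was detected in 74 of 127 *stag2b*-/- neurons and 65 of 95 wild-type neurons. Its level was 54.9 CPM (interval 46.5 to 64.4) in *stag2b*-/- neurons and 69.8 CPM (interval 59.0 to 82.1) in wild-type neurons, a log2 ratio of -0.35 (interval -0.69 to -0.01) that was -0.48 in marker-free neurons. In all other kept cells the level was 62.1 CPM in the *stag2b*-/- library and 110 CPM in the wild-type library, a log2 ratio of -0.83. Its transcript was thus lower in both sets of cells of the *stag2b*-/- library but not absent.

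The neurons were compared with neural progenitor cells of the same library, which were defined by *sox2*, *sox3* and *sox19a* and numbered 2508 in the *stag2b*-/- library and 1657 in the wild-type library. Of 12755 genes with at least 10 UMIs in the neurons, 2326 (18.2%) were more than 2-fold higher in neurons than in progenitors in both libraries and 1269 (9.95%) more than 2-fold lower. Against that background, 19 of 24 measured genes of the Rohon-Beard list, 26 of 30 synapse and vesicle genes, 25 of 34 cytoskeletal genes, 15 of 19 ion channel genes and 15 of 24 neurogenic transcription factors were higher in neurons in both libraries. By contrast 0 of 28 cell cycle genes and 2 of 21 neural progenitor genes were. The genes *sox2*, *sox3* and *sox19a*, which set the progenitors, are themselves on the neural progenitor list. Progenitors also had to hold at most 1 UMI of the rule genes. The choice of cells thus set these contrasts in part, and they are a description.

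The genes with the highest neuron-to-progenitor ratios joined transcription factors and release machinery. *scrt2*, a Scratch-family zinc finger repressor of newly born neurons, stood at 571 CPM in *stag2b*-/- neurons and 0.17 CPM in their progenitors, and at 447 and 0.04 CPM in wild-type neurons and progenitors. *neurod1*, a bHLH factor of neuronal differentiation, had 283 CPM in *stag2b*-/- neurons and 0.25 CPM in progenitors, and 418 and 0.17 CPM in the wild-type library. The vesicle protein gene *sv2bb* was 2062-fold higher in neurons than in progenitors in the *stag2b*-/- library and 1990-fold higher in the wild-type library. *stxbp1a*, *syn1*, *stmn2a*, *stmn2b* and *map6a* were also among the 20 genes with the largest ratios. At 16 hpf these neurons thus already held transcripts for axonal microtubules and synaptic vesicles.

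The sensory transcription factors *drgx*, *isl2b* and *tlx3b* were in the same top 20. *drgx*, a homeobox gene of dorsal root and Rohon-Beard sensory neurons, was 880-fold higher in neurons than in progenitors in the *stag2b*-/- library and 1545-fold higher in the wild-type library. A set of 5 such genes, chosen after their values were seen (*isl1*, *isl2b*, *drgx*, *tlx3b* and *pou4f1*), was detected with at least 3 members in 106 of 127 *stag2b*-/- neurons (83.5%, interval 75.8% to 89.5%) and in 87 of 95 wild-type neurons (91.6%, interval 84.1% to 96.3%). Among marker-free neurons this held for 64 of 75 *stag2b*-/- and 66 of 71 wild-type cells. It held for 1 of 2508 progenitors in the *stag2b*-/- library and 0 of 1657 in the wild-type library, cells chosen to lack the rule genes.

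The set was less frequent in *elavl3*-positive cells that the rule left out, that is, cells with at least 5 *elavl3* UMIs and fewer than 3 rule genes. There 92 of 587 *stag2b*-/- cells (15.7%) and 62 of 351 wild-type cells (17.7%) had at least 3 of the 5 genes. Most neurons taken by the rule therefore carried genes of the Rohon-Beard list.

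Shares of positive cells were compared after every cell was thinned to 5000 UMIs, which kept 118 *stag2b*-/- and 85 wild-type neurons, with epidermal cells as the measure of background. *isl1*, a LIM homeobox gene of sensory and motor neurons, was detected in 76.3% of *stag2b*-/- neurons and 87.1% of wild-type neurons, against 0.57% of *stag2b*-/- and 0.40% of wild-type epidermal cells. *drgx* was detected in 71.2% of *stag2b*-/- and 84.7% of wild-type neurons, and in 0.16% and 0.29% of the epidermal cells of these libraries. Both were thus far above background in the neurons of both libraries.

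Genes of the other neuron classes were detected less evenly. At least 2 motor neuron list genes that are not on the Rohon-Beard list had 2 or more UMIs in 81 of 127 *stag2b*-/- and 54 of 95 wild-type neurons. The same held for 699 of 2508 *stag2b*-/- and 528 of 1657 wild-type progenitors. It also held for 323 of 587 and 177 of 351 *elavl3*-positive cells outside the rule. The dorsal interneuron list was met by that measure in 69 *stag2b*-/- and 58 wild-type neurons, but in 6 and 1 without the genes shared with the Rohon-Beard list. *plxna3*, a semaphorin receptor gene, and *chodl* were abundant genes of the motor neuron list that are not on the Rohon-Beard list. They stood at 289 and 166 CPM in *stag2b*-/- neurons and 257 and 232 CPM in wild-type neurons. *plxna3* was also detected in 33.9% of *stag2b*-/- and 25.3% of wild-type epidermal cells after thinning. *mnx1*, a homeobox gene of motor neurons, was detected after thinning in 4.24% of *stag2b*-/- and 3.53% of wild-type neurons, against 1.34% and 0.86% of epidermal cells. Of the motor neuron list, which shares *isl1* and *isl2a* with the Rohon-Beard list, 5 of 14 measured genes were more than 2-fold higher and 1 more than 2-fold lower in the *stag2b*-/- library, all of them at 48 UMIs or fewer per library. Over all 12755 genes with at least 10 UMIs the shares were 15.5% higher and 4.59% lower. Only 1 V2a gene, 4 genes of the KA and V2b list and 6 of the V0 and V1 list reached 10 UMIs, and 0 of 5 V3 genes did. *slc32a1*, the vesicular GABA and glycine transporter, was at 0 UMIs in the neurons of both libraries, which allows up to 1.09 CPM in *stag2b*-/- and 1.44 CPM in wild-type neurons (3 counts of each total).

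**Figure D1:**
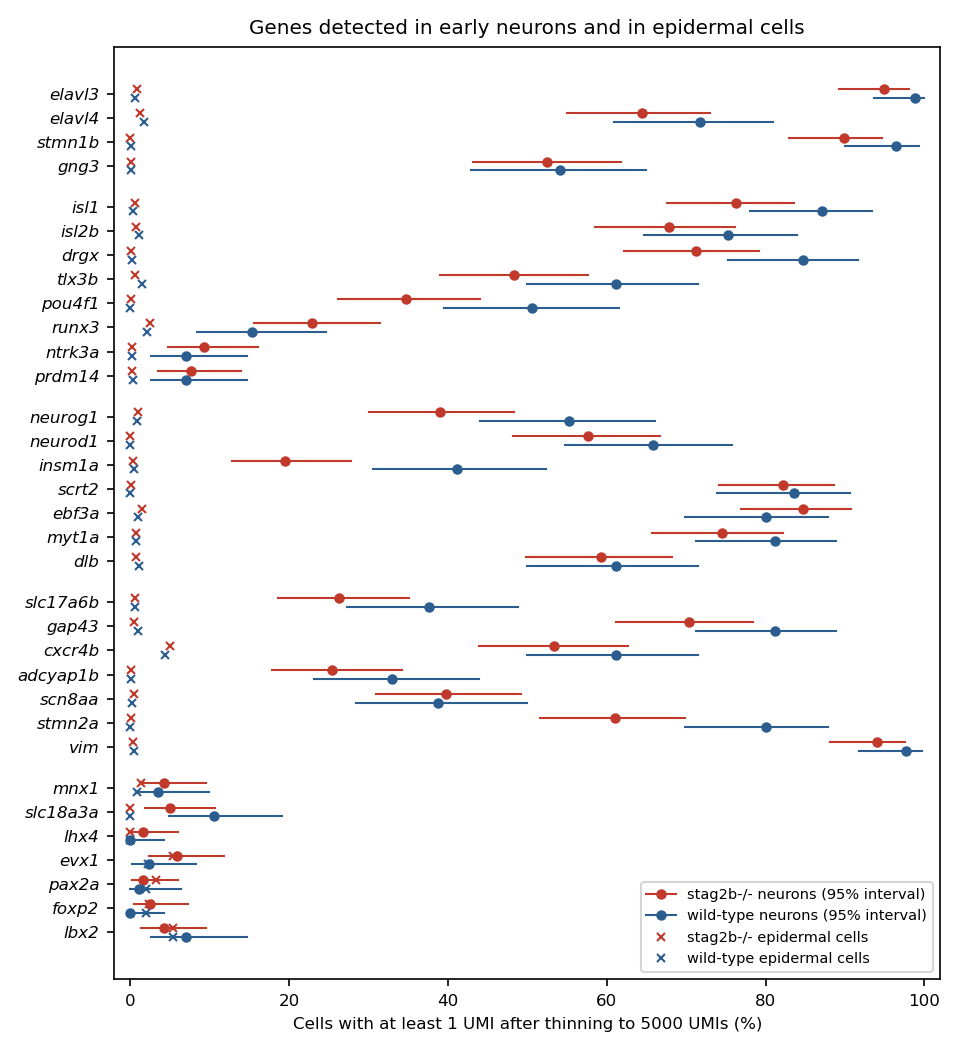
Share of cells with at least 1 UMI of each gene after thinning to 5000 UMIs (x axis, %). Circles are neurons with exact binomial 95% intervals and crosses are epidermal cells, in red for *stag2b*-/- and blue for wild type. Rule genes and most sensory and neurogenic genes lie well right of the crosses, as for *isl1* at 76.3% and 87.1%. Some sensory genes are detected in few neurons, and the upper quartile of *ntrk3a* before thinning is 0 UMIs in both libraries. *mnx1* at 4.24% and 3.53% and the other class genes at the bottom lie near the crosses.

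Between the libraries, 3186 genes reached 50 CPM in the neurons of at least 1 of them. Of these, 111 (3.48%) were more than 2-fold higher in *stag2b*-/- neurons and 55 (1.73%) more than 2-fold lower. For 39 and 29 of them the whole counting interval lay past 2-fold. The median log2 ratio of these genes was 0.07. Scaling by TMM, which assumes that most genes do not differ, moved all ratios by -0.18 and turned the share of calls that were higher in *stag2b*-/- neurons to 41.5%, against 66.9% with total UMIs. Lists were read over all genes with at least 10 UMIs, of which 1981 of 12755 (15.5%) were more than 2-fold higher and 585 (4.59%) more than 2-fold lower, with a median log2 ratio of 0.20.

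**Figure D2:**
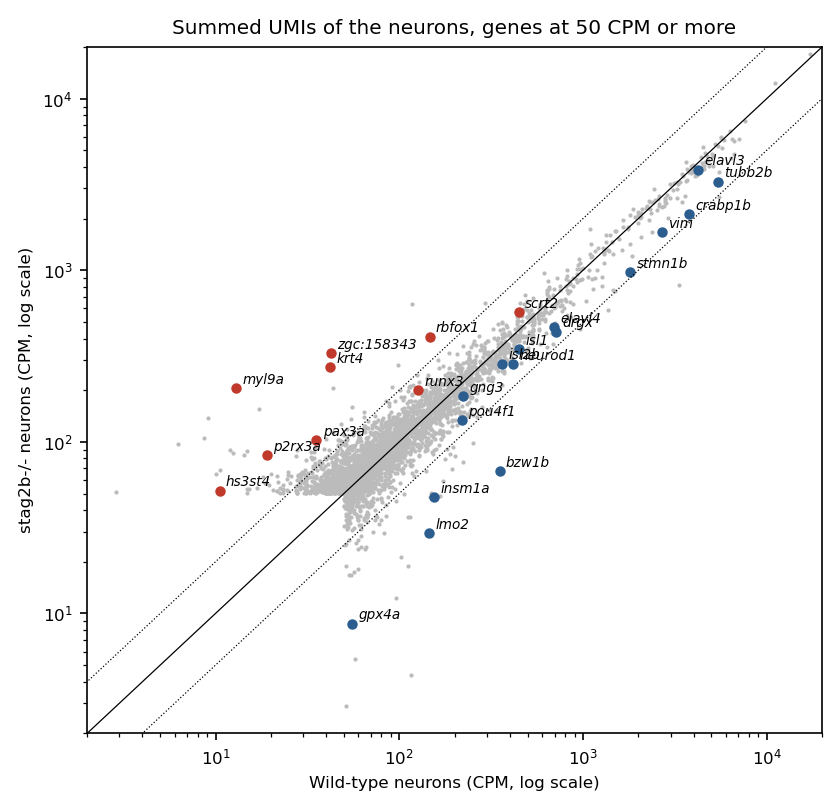
Summed level of each gene in *stag2b*-/- neurons (y axis, CPM, log scale) and in wild-type neurons (x axis, CPM, log scale) for genes that reached 50 CPM in either. The solid line marks equal levels and the dotted lines 2-fold, with labelled genes in red where higher and in blue where lower in *stag2b*-/- neurons. *rbfox1* and *p2rx3a* lie above the upper dotted line, *insm1a* lies below the lower line and *elavl3* lies close to the solid line.

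Most of the 10 largest ratios in each direction were also large outside the neurons. *csrp1b* had a log2 ratio of 3.97 in neurons and 3.98 in all other kept cells, *znfl1k* 4.15 and 2.86, *myl9a* 3.99 and 3.10, *si:dkey-286j15.3* 3.92 and 3.90, and *fthl31* 3.18 and 2.81. On the lower side, *si:dkey-102m7.3* had -4.72 in neurons and -4.73 in other cells, *gpx4a* -2.67 and -3.34, *bzw1b* -2.39 and -2.40, *rcc1l* -2.26 and -2.31, and *phb2a* -3.40 and -2.49. *CABZ01079276.1* had 1 UMI in *stag2b*-/- neurons and 138 in wild-type neurons, with a log2 ratio of -5.84 in other cells. These genes thus differed in the other cells as well. An exception was *lmo2*, a blood and endothelial factor gene, with 29.4 CPM in *stag2b*-/- and 146 CPM in wild-type neurons, where 1 wild-type cell held 76.4% of its UMIs.

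The neuron ratio exceeded that of the other cells by more than 1 log2 unit for 51 genes (1.6%) and was more than 1 below it for 50 (1.57%). *p2rx3a*, *hs3st4*, *zgc:158343* and *hbae1.3* were among the 10 genes furthest above, together with the keratin genes *krt4*, *krt8*, *cyt1* and *cyt1l*. *zgc:158343* stood at 328 CPM in *stag2b*-/- neurons and 42.6 CPM in wild-type neurons, a log2 ratio of 2.95 in neurons, 3.09 in marker-free neurons and -0.77 in other cells. *hbae1.3*, an alpha globin gene, stood at 85.8 CPM in *stag2b*-/- and 12.4 CPM in wild-type neurons, with a log2 ratio of 2.79 in neurons, 2.89 in marker-free neurons and -0.73 in other cells.

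The keratin genes *krt4*, *krt8* and *cyt1* are themselves on the epidermis list that sets marker-bearing cells aside, so their marker-free levels are lower by construction. The marker-free ratios of these genes are therefore only a description. *krt4* had a log2 ratio of 2.69 in all neurons and 0.56 in marker-free neurons, and *cyt1l* 2.9 and -0.49. A single *stag2b*-/- cell held 38.6% of the *krt4* UMIs of its library's neurons, and likewise the top cell held 62.4% for *cyt1l* and 72.0% for *cyt1*. On the opposite side, *snap25a*, a SNARE gene of synaptic vesicle fusion, had 91.9 CPM in *stag2b*-/- neurons and 104 CPM in wild-type neurons but a log2 ratio of 3.04 in other cells, where its level was 5.94 CPM in *stag2b*-/- and 0.72 CPM in wild type. *ppp1r1c* had 140 CPM in *stag2b*-/- and 266 CPM in wild-type neurons, a log2 ratio of -0.93 in neurons, -0.92 in marker-free neurons and 2.24 in other cells. *snap25a* thus differed in other cells and little in neurons, while *ppp1r1c* was lower in neurons and higher in other cells of the *stag2b*-/- library.

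Within the Rohon-Beard list, 3 of 24 measured genes were more than 2-fold higher and 3 more than 2-fold lower in *stag2b*-/- neurons, with a median log2 ratio of -0.12 (interval -0.37 to 0.37, and -0.02 in marker-free neurons). Of all genes, 15.5% were higher and 4.59% lower by that measure. The interval includes the all-gene median of 0.20, and the members spread to both sides. *drgx* had 439 CPM (interval 415 to 464) in *stag2b*-/- neurons and 715 CPM (interval 679 to 752) in wild-type neurons. Its log2 ratio was -0.70 in all neurons, -0.60 in marker-free neurons and -0.15 in other cells, and it was below 0 under all alternatives tried. The per-cell values overlapped widely, with a median of 3.97 UMIs per 10000 in *stag2b*-/- neurons (maximum 21.8) and 6.63 in wild-type neurons (maximum 21.2).

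*isl1* had 349 CPM (interval 327 to 372) in *stag2b*-/- neurons and 450 CPM (interval 422 to 480) in wild-type neurons, and its log2 ratio was -0.37, against -0.22 in marker-free neurons and 0.28 when rule and counts were thinned. *isl2b*, its paralogue, had 286 CPM in *stag2b*-/- and 363 CPM in wild-type neurons. *pou4f1*, which encodes the sensory POU factor Brn3a, had 134 CPM in *stag2b*-/- and 219 CPM in wild-type neurons, a log2 ratio of -0.70 that was -0.37 in marker-free neurons and 0.02 after thinning. No direction is therefore given for *isl1* or *pou4f1*. *pou4f2* had 14 UMIs in *stag2b*-/- neurons and 56 in wild-type neurons, a log2 ratio of -2.40, with -2.24 in other cells. *slc17a6b*, a vesicular glutamate transporter gene, had 86.9 CPM in *stag2b*-/- neurons and 151 CPM in wild-type neurons, a log2 ratio of -0.79 in neurons, -0.47 in marker-free neurons and 0.20 in other cells.

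Some other genes of the list were higher in the *stag2b*-/- library. *p2rx3a*, an ATP-gated channel of sensory neurons, was detected in 26 of 127 *stag2b*-/- neurons and 12 of 95 wild-type neurons. Its level was 83.6 CPM (interval 73.1 to 95.1) in *stag2b*-/- neurons and 19.1 CPM (interval 13.7 to 26.1) in wild-type neurons, a log2 ratio of 2.13 (interval 1.64 to 2.65) that was 3.02 in marker-free neurons and 0.33 in other cells. *p2rx3b*, the paralogue of *p2rx3a*, had 3 UMIs in *stag2b*-/- neurons and 23 in wild-type neurons. *runx3*, a Runt factor that in mouse specifies proprioceptive sensory neurons, had 201 CPM in *stag2b*-/- and 126 CPM in wild-type neurons, with log2 ratios of 0.67 in neurons, 1.21 in marker-free neurons and 0.89 in other cells. *six1b* had 18 UMIs in *stag2b*-/- neurons and 0 in wild-type neurons. With the 0 set to a floor of 3 counts the ratio is 4.56-fold, a value without its counting error. Its upper quartile over the neurons was 0 UMIs in both libraries.

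The 222 neurons were clustered on their own, without the rule genes and without genes past 2-fold, into 8 clusters, which are called by their leading genes. A cluster led by *dlb*, *insm1a* and *neurod1* held 25 *stag2b*-/- and 24 wild-type cells, and a shallow cluster (median 5175 UMIs) led by *ccka*, *tmsb* and *tubb2b* held 19 and 22. A cluster led by *ntrk2a* held 13 *stag2b*-/- and 7 wild-type cells. Another shallow cluster, whose leading genes were the keratin genes *cyt1* and *krt4*, held 7 and 7. Its keratin signal came mainly from 1 *stag2b*-/- cell with 289 *krt4* UMIs, and no other member had more than 1. In this cluster 50% of cells carried markers of another type, and *msgn1* stood at 886 CPM. In 3 clusters, led by *chrd* and *sox19a*, by *her1*, *msgn1* and *tbx6*, and by *cldni* and *krt8*, most cells carried markers of another type, and these held 47 of 127 *stag2b*-/- neurons (37.0%) and 20 of 95 wild-type neurons (21.1%). When Scrublet doublets were removed before clustering, such clusters held 13.9% of *stag2b*-/- and 6.67% of wild-type neurons, a difference of 7.22 percentage points with an interval from -2.15 to 16.2.

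The remaining 31 cells formed a cluster led by *ntrk3a*, *p2rx3a*, *runx3* and *runx1*, with 16 *stag2b*-/- and 15 wild-type cells. The genes given here were chosen after their values were seen. *p2rx3a* was detected in 14 of 16 *stag2b*-/- cells and 7 of 15 wild-type cells of the cluster, at 469 CPM (interval 403 to 542) in *stag2b*-/- and 42.9 CPM (interval 25.4 to 67.8) in wild type, a log2 ratio of 3.45. *runx3* stood at 968 CPM in *stag2b*-/- and 343 CPM in wild-type cells, *ntrk3a*, a neurotrophin-3 receptor gene, at 443 and 229 CPM, and *hs3st4*, which encodes a heparan sulfate sulfotransferase, at 209 and 21.4 CPM. Cluster sizes are not compared, because genes that lead the cluster differed between the libraries. For the same reason these levels depend on which cells were placed in the cluster, and they are a description. Over all neurons the log2 ratios were 2.13 for *p2rx3a*, 0.67 for *runx3*, 0.13 for *ntrk3a* and 2.30 for *hs3st4*.

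Transcription factors of the Rohon-Beard list differed unequally between the libraries in the cells placed in that cluster. *runx1* had 265 CPM in *stag2b*-/- and 217 CPM in wild-type cells (log2 ratio 0.29, interval -0.13 to 0.71), *isl1* 451 and 493 CPM (log2 ratio -0.13, interval -0.43 to 0.17), and *isl2b* 654 and 593 CPM (log2 ratio 0.14, interval -0.12 to 0.40). *drgx* had 482 CPM in *stag2b*-/- and 712 CPM in wild-type cells (log2 ratio -0.56, interval -0.84 to -0.30). The intervals of *runx1*, *isl1* and *isl2b* include 0, and that of *drgx* lies below 0. The log2 ratios of *runx3* and the receptor gene *ntrk3a* were 1.5 and 0.95. *runx3* was detected in 16 of 16 *stag2b*-/- and 9 of 15 wild-type cells of the cluster. Cells placed in a *runx3*-led cluster numbered 19 and 11 at resolution 1.5, and 10 and 7 without Scrublet doublets. All ratios within the cluster depend on that placement and are a description.

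**Figure D3:**
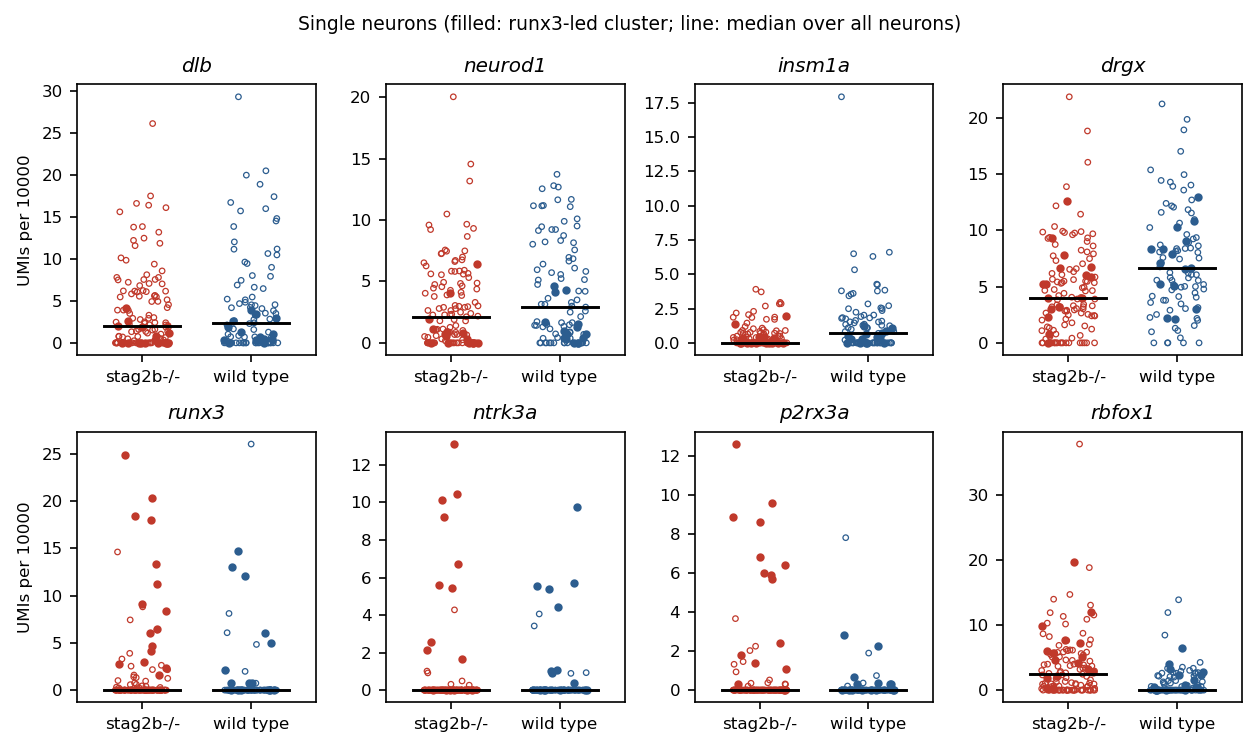
Level of 8 genes in every neuron (y axis, UMIs per 10000), *stag2b*-/- left of wild type. Filled points are cells of the *runx3*-led cluster, open points the other neurons, and black lines the medians over all neurons. The filled *stag2b*-/- points of *p2rx3a* reach 12.6, the medians of *drgx* are 3.97 in *stag2b*-/- and 6.63 in wild-type neurons, and the points of the libraries overlap in every panel.

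Neurogenic transcription factors had a median log2 ratio of -0.31 over 24 measured genes, -0.15 in marker-free neurons and -0.13 when rule and counts were thinned. Of these genes 0 were more than 2-fold higher and 3 more than 2-fold lower, beside 15.5% and 4.59% of all genes. *insm1a*, a zinc finger gene of newly born neurons, was detected in 54 of 127 *stag2b*-/- neurons and 55 of 95 wild-type neurons, at 47.6 CPM (interval 39.8 to 56.5) in *stag2b*-/- and 154 CPM (interval 138 to 172) in wild type. Its log2 ratio was -1.70 (interval -2.0 to -1.40) in neurons, -1.40 in marker-free neurons and -0.99 in other cells. The median cell held 0 UMIs per 10000 in *stag2b*-/- and 0.70 in wild type, with maxima of 3.90 and 17.9. *insm1a* was thus lower in the *stag2b*-/- library in neurons and in other cells, and its paralogue *insm1b* had log2 ratios of 0.39 in neurons and -0.40 in other cells.

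The other 2 neurogenic factors below 2-fold, *ascl1b* and *sox4b*, had at most 22 UMIs in a library. *neurog1*, the proneural gene of sensory and other primary neurons, had 152 CPM in *stag2b*-/- neurons and 243 CPM in wild-type neurons, and *neurod1*, which acts downstream of it, had 283 and 418 CPM. Their log2 ratios were -0.68 and -0.56 in neurons and -0.59 and -0.45 in other cells. The other cells include the *elavl3*-positive cells that the rule left out. There *neurod1* had 90.2 CPM in *stag2b*-/- and 153 CPM in wild type, against 0.25 and 0.17 CPM in progenitors. The similar ratios therefore do not describe the library at large. *ebf3a*, a helix-loop-helix factor of differentiating neurons, stood at 1026 CPM in *stag2b*-/- and 1004 CPM in wild-type neurons.

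In the Notch list 2 of 23 measured genes were more than 2-fold higher and 0 lower, beside 15.5% and 4.59% of all genes. The median log2 ratio was 0.39 (0.24 in marker-free neurons). *dlb*, a Delta ligand of nascent neurons, had 397 CPM in *stag2b*-/- and 530 CPM in wild-type neurons, a log2 ratio of -0.42 in neurons and -0.43 in other cells. *her8a* and *rfng*, a glycosyltransferase that modifies Notch, were the 2 genes past 2-fold, with at most 67 UMIs in a library.

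Of the cytoskeletal genes, 1 of 34 was more than 2-fold higher and 1 more than 2-fold lower, beside 15.5% and 4.59% of all genes. The median log2 ratio was -0.11 (0.05 in marker-free neurons). The abundant tubulin gene *tubb2b* had 3290 CPM in *stag2b*-/- neurons and 5436 CPM in wild-type neurons, a log2 ratio of -0.72 in neurons, -0.55 in marker-free neurons and -0.48 in other cells. *tubb5*, another beta tubulin gene, stood at 1320 CPM in *stag2b*-/- and 1326 CPM in wild-type neurons. *stmn2a*, a stathmin of growing axons, had 336 CPM in *stag2b*-/- and 447 CPM in wild-type neurons, and its paralogue *stmn2b* 419 and 382 CPM. The size of the difference thus varied among members of the tubulin and stathmin families. *gap43*, a growth cone protein gene, had 419 CPM in *stag2b*-/- and 537 CPM in wild-type neurons, with a log2 ratio of -0.36 that was -0.13 in marker-free neurons.

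Axon guidance and adhesion genes had a median log2 ratio of 0.28, with 7 of 33 more than 2-fold higher and 0 lower, beside a background of 15.5% of all genes. In marker-free neurons the median was 0.29, and 4 of 30 were higher, beside 11.8% of all genes. The 7 higher in all neurons were *unc5da*, *nrp2a*, *epha4a*, *epha4b*, *ncam1b*, *cxcr4a* and *slit2*, receptors, adhesion molecules and a secreted repellent. *epha4a*, an ephrin receptor gene, had 53.1 CPM in *stag2b*-/- and 23.4 CPM in wild-type neurons, a log2 ratio of 1.18 in neurons, 1.47 in marker-free neurons and 0.08 in other cells. *plxna4*, a semaphorin receptor gene, had 503 CPM in *stag2b*-/- and 507 CPM in wild-type neurons. The chemokine receptor gene *cxcr4b* had the lowest ratio of the list, with 231 CPM in *stag2b*-/- and 310 CPM in wild-type neurons, a log2 ratio of -0.43 (interval -0.59 to -0.27) that was -0.25 in marker-free neurons.

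Synapse and vesicle genes had a median log2 ratio of -0.22, against -0.08 in marker-free neurons and 0.11 when rule and counts were thinned. Of 30 measured, 3 were more than 2-fold higher and 6 lower, beside 15.5% and 4.59% of all genes. Of the 6 lower genes, *nsg2*, an endosomal protein gene of neurons, was the most abundant, with 91 UMIs in *stag2b*-/- neurons and 162 in wild-type neurons, and the others had at most 37. Ion channel genes had 3 of 19 higher, a share near the 15.5% of all genes, and 0 lower. Among the 3 was the sodium channel gene *scn1laa*, with 42 UMIs in *stag2b*-/- and 6 in wild-type neurons. The sodium channel gene *scn8aa* stood at 136 CPM in *stag2b*-/- and 139 CPM in wild-type neurons.

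The neuronal RNA-binding protein list was led by 1 gene. *rbfox1*, a splicing regulator of neurons and muscle, was detected in 93 of 127 *stag2b*-/- neurons and 45 of 95 wild-type neurons. Its level was 411 CPM (interval 387 to 436) in *stag2b*-/- and 146 CPM (interval 130 to 164) in wild-type neurons. The log2 ratio was 1.49 (interval 1.31 to 1.68) in neurons, 1.33 in marker-free neurons and 0.40 in other cells. The median neuron held 2.44 UMIs per 10000 in *stag2b*-/- and 0 in wild type, with maxima of 37.8 and 13.9, so the distributions overlapped.

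Other splicing regulators of the list had smaller positive ratios. *rbfox3a*, the gene of the neuronal nuclear antigen NeuN, had 455 CPM in *stag2b*-/- and 324 CPM in wild-type neurons, and *srrm4*, a regulator of neuronal microexons, 500 and 362 CPM. Their log2 ratios were 0.49 and 0.47 in neurons and 0.38 and 0.44 in other cells. The list had 2 of 21 genes more than 2-fold higher and 0 lower, beside 15.5% and 4.59% of all genes. Its median log2 ratio was 0.35, where the other cells had 0.31. *rbfox1* therefore stood apart from the other cells, and *rbfox3a* and *srrm4* differed about as much in other cells.

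**Figure D4:**
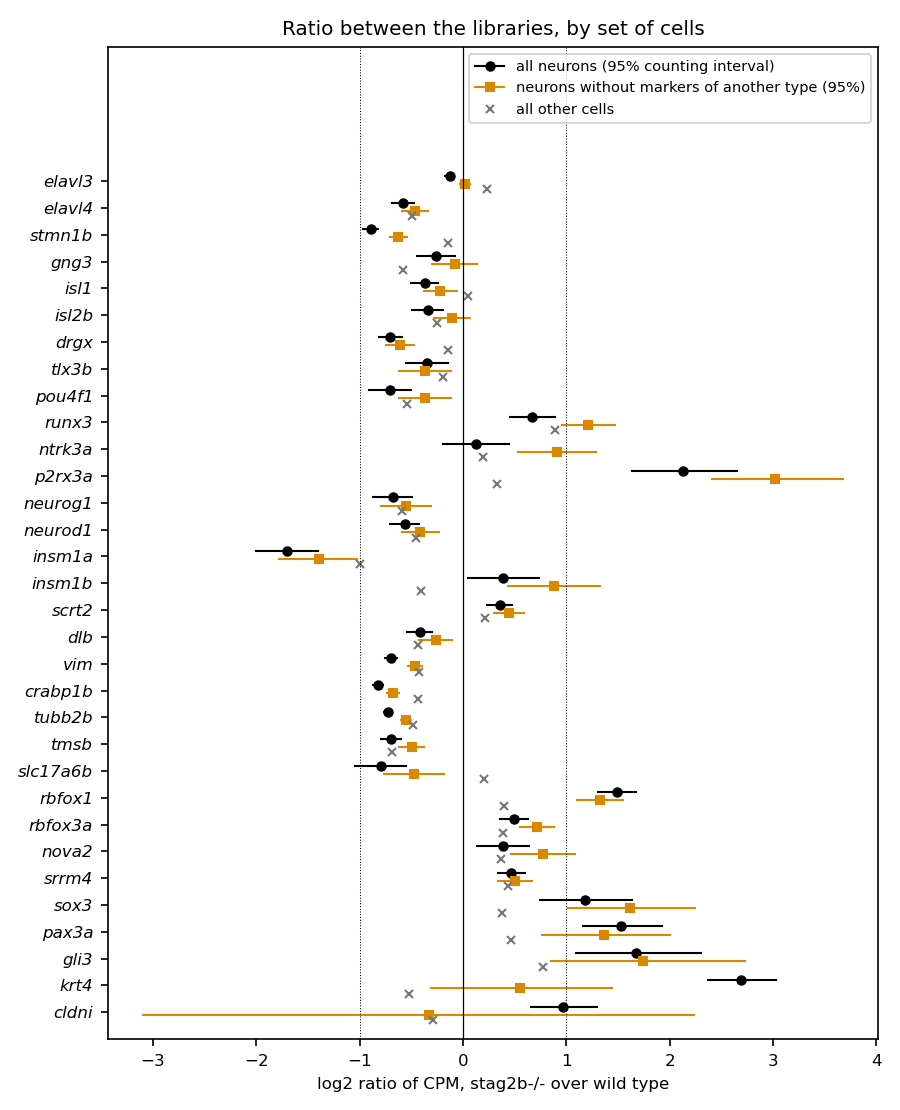
Log2 ratio of CPM, *stag2b*-/- over wild type (x axis), for all neurons (black circles with 95% counting intervals), for neurons without markers of another type (orange squares with 95% intervals) and for all other kept cells (grey crosses). Dotted lines mark 2-fold. *p2rx3a* at 2.13 and *rbfox1* at 1.49 stay past 2-fold without marker-bearing cells, and *krt4*, itself a marker used to set those cells aside, has 2.69 in all neurons and 0.56 without them.

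Neural progenitor genes were more than 2-fold higher for 7 of 21 in *stag2b*-/- neurons and lower for 0, beside 15.5% and 4.59% of all genes. The median log2 ratio was 0.33 (0.19 in marker-free neurons). *sox3*, a SoxB1 gene of progenitors, had 64.0 CPM in *stag2b*-/- and 28.2 CPM in wild-type neurons, with log2 ratios of 1.18 in neurons, 1.61 in marker-free neurons and 0.38 in other cells. *pax3a*, a dorsal neural tube gene, had 102 CPM in *stag2b*-/- and 35.4 CPM in wild-type neurons, with log2 ratios of 1.53, 1.37 and 0.46 in the same sets. *vim*, the intermediate filament gene vimentin, which these neurons carried far above progenitors, ran the other way, with 1662 CPM in *stag2b*-/- and 2697 CPM in wild-type neurons and a log2 ratio of -0.70.

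The cell cycle list had a median log2 ratio of 0.55 in neurons, 0.59 in marker-free neurons and -0.10 in other cells, with 3 of 28 genes more than 2-fold higher and 1 lower. *plk1*, a mitotic kinase gene, had 80.7 CPM in *stag2b*-/- and 34.4 CPM in wild-type neurons, *cdc20* 70.9 and 34.4 CPM, and *aurka* 31.6 and 12.4 CPM. *mcm7*, a replication helicase gene, was the gene below 2-fold, with a log2 ratio of -1.12 in neurons and -1.41 in other cells. *cdkn1ca*, a cell cycle inhibitor gene, had 505 CPM in *stag2b*-/- and 621 CPM in wild-type neurons, a log2 ratio of -0.30 that was 0.11 after thinning. In marker-free neurons 6 of the 28 were more than 2-fold higher and 2 lower, beside 1245 (11.8%) and 560 (5.3%) of 10563 genes. The list median thus stood above that of all genes, while its count past 2-fold lay below the background of 15.5% in all neurons and above that of 11.8% in marker-free neurons. Against progenitors of the same library the list had a median log2 ratio of -1.6 in *stag2b*-/- neurons and -2.2 in wild-type neurons.

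The cohesin and CTCF list had 1 of 17 genes more than 2-fold higher and 0 lower, beside 15.5% and 4.59% of all genes. Its median log2 ratio was 0.42, against 0.25 in marker-free neurons and 0.19 when rule and counts were thinned. *stag1a* and *stag1b*, paralogues of *stag2b*, had log2 ratios of 1.22 and 0.86 in neurons and 0.70 and 0.46 in other cells. Under the alternatives tried their neuron ratios stayed above 0 but fell to as low as 0.34 for *stag1a* and 0.19 for *stag1b*. *ctcf*, the insulator protein that halts cohesin, had 65.8 CPM in *stag2b*-/- and 33.5 CPM in wild-type neurons. Stress and immediate early genes, which dissociation can induce, had 0 of 17 higher and 4 lower, beside the same shares of all genes. Their median log2 ratio was -0.62 in neurons and -0.73 in other cells. *hsp70.2* had 6 UMIs in *stag2b*-/- and 56 in wild-type neurons.

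Clustered protocadherins are cell surface genes whose promoters bind CTCF in mammals. Of 34 in the files 10 were measured, with 0 more than 2-fold higher and 6 lower, beside 15.5% and 4.59% of all genes. Their median log2 ratio was -1.18 (interval of the median -2.72 to 0.05). All but 1 had at most 19 UMIs in a library, and thinning, which left fewer of them measurable, gave a median of 0.10. The exception, *pcdh2g28*, had 445 UMIs in *stag2b*-/- neurons and 327 in wild-type neurons and a log2 ratio of 0.05.

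Hox genes give the position of cells along the body axis, with higher paralogue groups towards the tail. Of 41 measured Hox genes, 1 was more than 2-fold higher and 1 lower, beside 15.5% and 4.59% of all genes, and the median log2 ratio was 0.02. Group 9 genes summed to 833 CPM in *stag2b*-/- neurons and 888 CPM in wild-type neurons, group 10 to 518 and 599 CPM, and group 11 to 501 and 560 CPM. Groups 1 to 7, 10, 12 and 13 were lower in neurons than in progenitors in both libraries. Group 12 had 140 CPM in neurons and 384 CPM in progenitors of the *stag2b*-/- library, and 150 and 508 CPM in the wild-type library. Group 2 had 30.9 and 80.9 CPM in the *stag2b*-/- library and 33.5 and 105 CPM in the wild-type library. The group with the largest negative ratio, group 7, had 308 CPM in *stag2b*-/- and 411 CPM in wild-type neurons (log2 ratio -0.42). For groups 2, 5, 8, 12 and 13 the interval of the ratio includes 0.

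**Figure D5:**
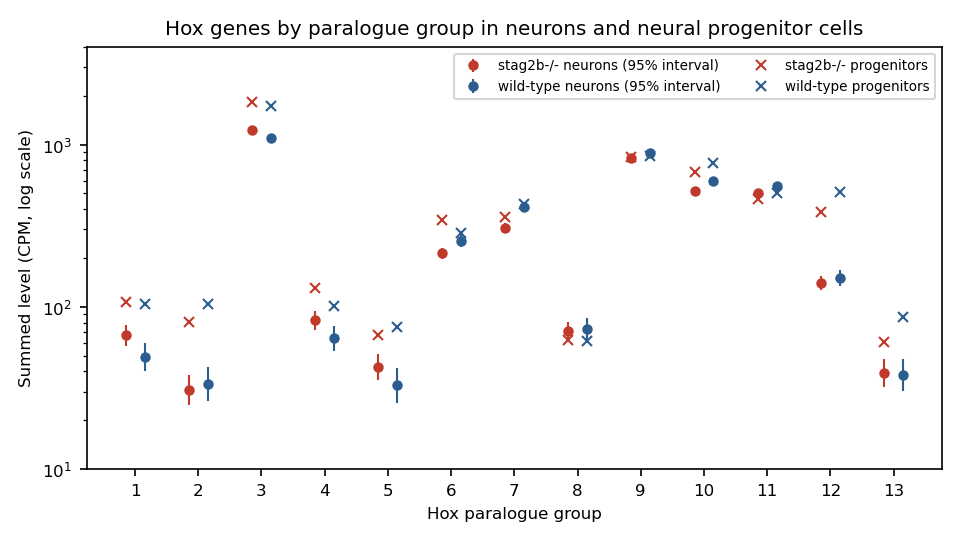
Summed CPM (y axis, log scale) of Hox genes by paralogue group (x axis) in neurons (circles, Poisson 95% intervals) and neural progenitor cells (crosses), *stag2b*-/- in red left of wild type in blue. The circles of the libraries lie close together in most groups, as for group 9 at 833 and 888 CPM. In group 12, as in several other groups, they lie below the crosses.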

How the data were processed

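The authors deposited 1 matrix of UMI counts, genes by barcodes, per library, made with Cell Ranger 7.1.0 on GRCz11 with intronic reads included. Here 519 symbols with several rows were summed, giving 27119 symbols. Neurons were taken by the rule above, UMIs were summed per library and expressed as CPM, and 2-fold at 50 CPM or more in the higher library served as the call, without a test. Lists were read at 10 UMIs or more. Progenitors had *sox2*, *sox3* and *sox19a* at 5 UMIs or more with at least 2 detected and no *tbxta*, and epidermal cells *krt4*, *cyt1*, *epcam* and *cldni* at 5 or more with at least 3 detected, both with at most 1 UMI of the rule genes. Doublets were kept. The genes named are the rule genes, list members, the 10 largest ratios each way, the 10 largest neuron-minus-other-cell differences each way, the 20 largest neuron-over-progenitor ratios and Hox groups. Neurons were clustered by Leiden (1500 genes, 15 components, 10 neighbours, resolution 1). Members and lists were chosen with earlier results of these data known. Scripts used Python 3.11.15, numpy 2.4.6, scipy 1.17.1, pandas 2.3.3, scanpy 1.11.5, leidenalg 0.10.2, and edgeR 4.0.16 in R 4.3.3 for TMM only, and were tested on simulated data. Alternatives changed the cell limits, the rule, doublets, depth, scaling and the CPM minimum.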

Additional observations from a re-analysis of the deposited data

How the results depend on the processing

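Of 254 values for the comparisons, 229 kept their direction and size, 24 moved and 1 turned, and of 755 values for 63 single genes 577 kept, 169 moved and 9 turned. Of the 3186 genes, 111 were higher and 55 lower, against 61 and 86 with TMM, 396 and 124 at 20 CPM, 29 and 26 at 100 CPM, 39 and 29 with the whole interval past 2-fold, and 197 and 85 with rule and counts thinned to 5000 UMIs. Genes with a neuron ratio above or below that of other cells by 1 log2 unit numbered 99 and 99 after thinning, and those above it 33 without the muscle limit. Thinning gave list medians of -0.13 for neurogenic factors, 0.11 for synapse genes (which turned), 0.10 for protocadherins and 0.19 for cohesin, and turned *cdkn1ca* to 0.11, *isl1* to 0.28 and *pou4f1* to 0.017. The cohesin median was 0.25 with TMM, 0.25 without cells of another type and 0.24 as a mean over cells. The neurogenic median was -0.15 without cells of another type and -0.17 as a mean over cells, and the Notch median 0.13 without Scrublet doublets. Without cells of another type *cyt1l* was -0.49 and *elavl3* 0.022. With all 4 rule genes required, *cyt1* was -0.97 and *krt8* -0.15. Removing both cells of another type and doublets, an alternative chosen after seeing the data, gave -0.14 for neurogenic factors, 0.086 for cytoskeletal genes, -0.44 for *cyt1l* and 0.042 for *elavl3*. The causes were not tested. With TMM the medians of the Hox, ion channel and all-gene lists lie lower by 0.18, so positive medians below that size have no fixed sign.

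No paired analysis was possible because each genotype had 1 library, and leaving out a library leaves no comparison. The summed depth, 2751610 UMIs in *stag2b*-/- and 2090578 in wild-type neurons, sets a floor of 1.09 and 1.44 CPM, so genes of a few UMIs cannot be ranked.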
